A study of Mus musculus with 4 samples.

Results

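E2A peaks were examined at 36 genes of the TCR signaling pathway, of 22350 protein-coding genes on chromosomes 1 to 19 and X, in DP and iNKT cells sorted from L-DKO thymus. The 36 genes were taken by function: 5 kinases, 7 adaptors, 7 genes for second messengers and exchange factors, 4 surface receptors, 3 phosphatases, 3 genes of the ubiquitin pathway, 2 of the NF-kB arm and 5 of the calcineurin-NFAT arm. A peak was assigned to a gene when its midpoint lay in the gene body, within 30 kb upstream or within 5 kb downstream (GENCODE M1 annotation, mm9), and a gene with such a peak is called bound here. Such a peak is a position near a gene and not a measure of the gene's regulation.

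L-DKO mice carry floxed alleles of both Id2 and Id3 (Id2f/f Id3f/f) and the LckCre+ transgene, in which the Lck promoter drives Cre in thymocytes. Both cell types are thus meant to lack Id2 and Id3, which are inhibitors of E proteins. Mice were 3 to 5 weeks old, on C57BL/6 or C57BL/6 × 129 hybrid backgrounds, and cells from 3 to 4 mice were pooled before sorting. DP cells were gated as CD1dTet- CD4+ CD8+ and iNKT cells as CD1dTet+ TCRβ+. There was 1 E2A library and 1 input library for each cell type, and no Id-sufficient mice were used for ChIP-Seq. Values therefore have no spread between replicates, the cell types were compared without a test, and 95% Wilson intervals cover counting error only. The depth of the libraries is unknown, and more peaks are called from a deeper or cleaner library. Peak lists carry no check of the sort or of Id deletion.

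The TCR has no enzymatic activity of its own. Lck phosphorylates the CD3 chains, Zap70 docks there and phosphorylates the adaptors Lat and SLP-76, and this platform recruits phospholipase C gamma, whose products release calcium and activate Ras and protein kinase C theta. Calcium acts through calcineurin on NFAT factors, protein kinase C theta acts through Bcl10 and Malt1 on NF-kB, and phosphatases, Cbl ubiquitin ligases and inhibitory receptors restrain the cascade. In DP thymocytes this signal decides survival and lineage, and iNKT cells are selected through it by CD1d-bound lipids. E proteins such as E2A bind E-boxes as dimers, and Id proteins block this binding.

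Only 3 DP peaks at the 36 genes overlapped an iNKT peak, at Lck, Themis and Ctla4, and 200 bases (mm9, plus strand) centred on each DP midpoint are shown, with the E2A core in capitals. The core reads CAGGTG, and where it lies on the minus strand the printed letters are its reverse complement, CACCTG. A second E-box word that was searched for and would also be in capitals is CAGCTG.
Lck, chr4:129252462-129252661: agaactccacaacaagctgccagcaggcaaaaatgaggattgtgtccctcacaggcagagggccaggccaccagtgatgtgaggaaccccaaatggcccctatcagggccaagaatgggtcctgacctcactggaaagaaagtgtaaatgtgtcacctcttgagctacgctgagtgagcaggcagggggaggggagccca
Themis, chr10:28520866-28521065: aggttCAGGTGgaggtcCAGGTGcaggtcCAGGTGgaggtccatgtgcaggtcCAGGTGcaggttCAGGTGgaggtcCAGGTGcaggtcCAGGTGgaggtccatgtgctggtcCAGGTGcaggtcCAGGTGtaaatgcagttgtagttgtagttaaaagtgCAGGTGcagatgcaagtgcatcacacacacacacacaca
Ctla4, chr1:60967787-60967986: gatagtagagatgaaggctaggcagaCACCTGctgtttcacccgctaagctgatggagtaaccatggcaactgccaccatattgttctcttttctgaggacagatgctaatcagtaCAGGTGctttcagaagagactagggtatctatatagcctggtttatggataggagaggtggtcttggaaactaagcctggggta
The windows differed in E-box content. The Themis window held 10 copies of CAGGTG in a tandem array, the Ctla4 window held 2, and the Lck window held 0 copies of either word.

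The E-box nearest the midpoint is shown with 41 bases (mm9, plus strand) for the highest DP peak of 7 of the 8 role groups, to show 1 site from each step of the cascade, and for the shared Lck peak, whose nearest E-box lay outside the window above.
Lck, shared peak, chr4:129252694-129252734: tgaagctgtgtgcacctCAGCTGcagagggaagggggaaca
Cd6, surface receptor, chr19:10862310-10862350: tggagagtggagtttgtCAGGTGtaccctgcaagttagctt
Tec, kinase, chr5:73152694-73152734: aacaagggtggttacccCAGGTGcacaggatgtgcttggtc
Ptprc, phosphatase, chr1:140088449-140088489: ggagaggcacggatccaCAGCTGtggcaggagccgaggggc
Lcp2, adaptor, chr11:33978074-33978114: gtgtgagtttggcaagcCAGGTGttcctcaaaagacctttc
Dgka, second messenger, chr10:128153341-128153381: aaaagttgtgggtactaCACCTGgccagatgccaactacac
Cbl, ubiquitin pathway, chr9:44046763-44046803: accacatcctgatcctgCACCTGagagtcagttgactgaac
Nfatc3, calcineurin-NFAT arm, chr8:108635890-108635930: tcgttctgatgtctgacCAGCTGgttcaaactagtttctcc
The word lay 9.50 bp from the peak midpoint at Dgka and 21.5 bp at Tec, but 280 bp at Cbl and 198 bp at Ptprc. The peak lists give no summit, so the distance to the point of highest signal is unknown.

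In DP cells, 33 of the 36 genes had an E2A peak (91.7%, 95% interval 78.2% to 97.1%). For comparison, each gene was set beside the 200 protein-coding genes closest to it in body length, and 46.7% of these like-length places had a DP peak, as did 39.2% of all protein-coding genes. The 36 windows held 166 DP peaks, with a median of 4.00 per gene, a mean of 4.61 and a maximum of 15, whereas the like-length places had a median of 0 and a mean of 1.26. All 33 bound genes had more DP peaks than the median of their own like-length genes. That median was 1.00 for Fyn, Lcp2, Prkcq, Cd28, Cblb, Ppp3ca, Nfatc2 and Nfatc3. It was lower for the other bound genes, where having any peak is enough to exceed it. Length was taken into account because the TCR signaling genes were long (median body 50.6 kb, range 5.71 to 268 kb) beside all protein-coding genes (median 15.4 kb). The genes were set side by side by length alone.

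In iNKT cells, 4 of the 36 genes had a peak: Lck, Zap70, Themis and Ctla4 (11.1%, interval 4.41% to 25.3%). The like-length share was 8.90% and the share of all protein-coding genes was 5.73%, so the iNKT share lay near its background. The same 4 genes had a peak in both lists, against 7.51% of like-length places. The remaining 29 bound genes had a DP peak and no iNKT peak, and Nck1, Sos1 and Bcl10 had no peak in either list. The DP list (17532 peaks) was longer than the iNKT list (1516 peaks). With the DP list limited to its 1516 highest-scoring peaks, 15 genes were bound (41.7%, interval 27.1% to 57.8%), against 8.04% of like-length places. At equal list length the bound genes were thus 15 in DP cells and 4 in iNKT cells, although lists of equal length do not remove a difference in depth or enrichment between libraries.

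**Figure D1:**
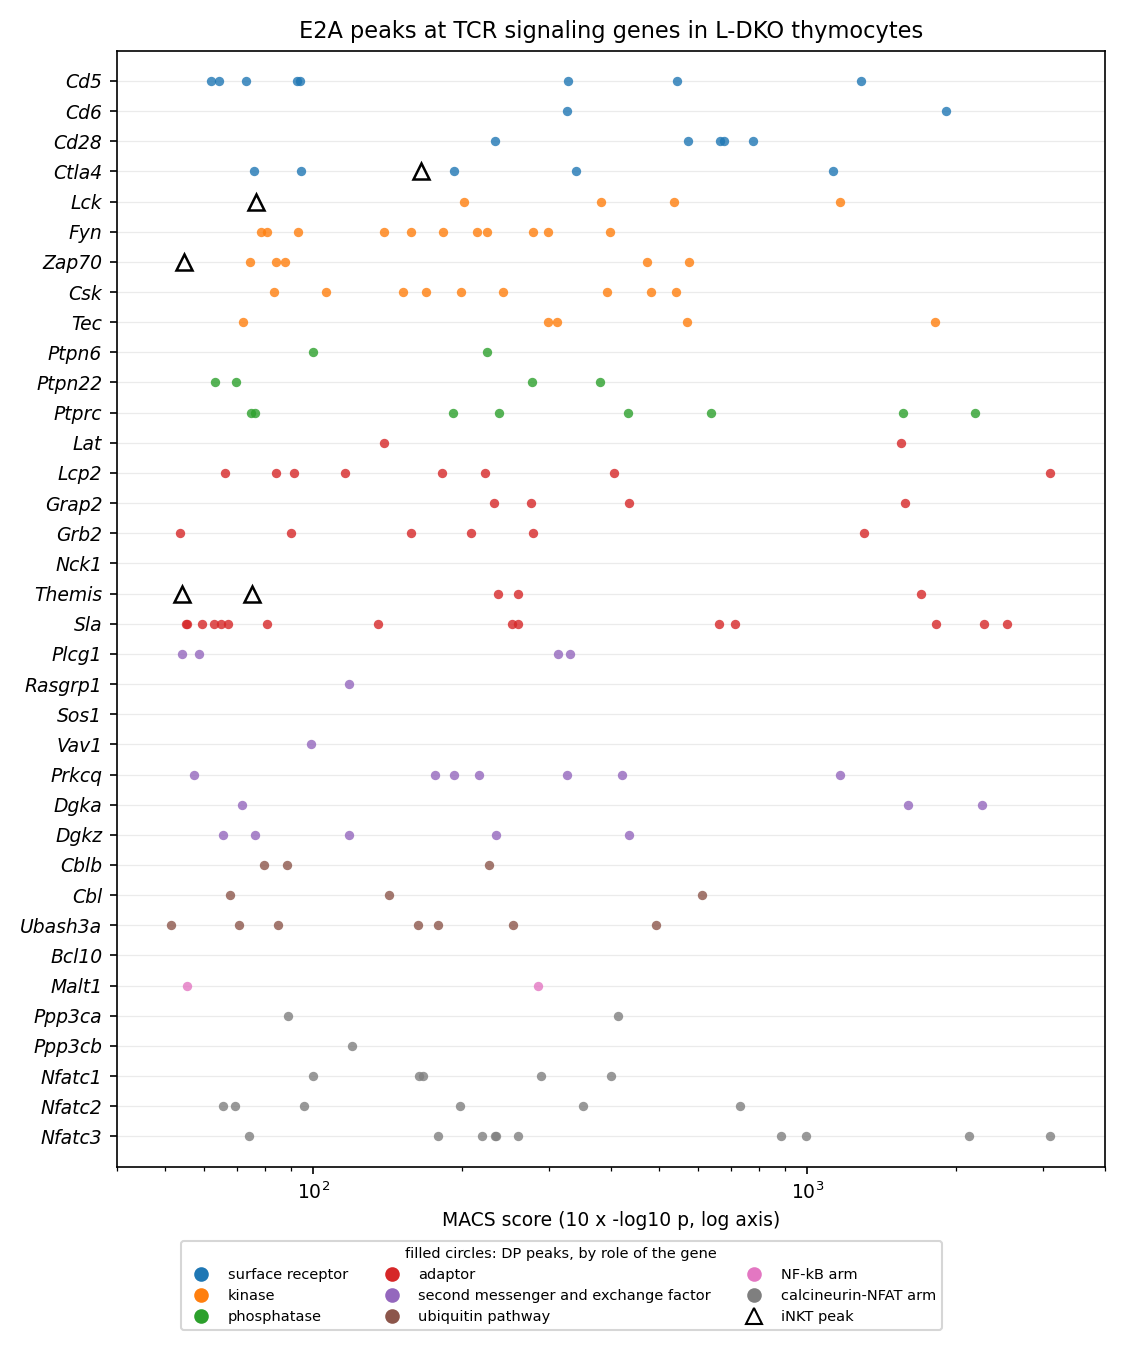
MACS score of every E2A peak (−log10 of the MACS p-value times 10, log axis) for the 36 TCR signaling genes, 1 row per gene, with DP peaks as filled circles coloured by role and iNKT peaks as open triangles. DP peaks lie in 33 rows and span 51.5 to 3100, while the 5 iNKT peaks lie in 4 rows and span 54.1 to 165, and scores are read within a list because the depth of the libraries is unknown.

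The 4 surface receptors were all bound in DP cells, with 2 to 8 peaks each, and 1 of them in iNKT cells, against like-length shares of 45.0% (DP) and 6.25% (iNKT). Cd6, a scavenger-type receptor that binds CD166 and tunes TCR signals, had the highest score of the group, 1910 (rank 690 of 17532), 1 of its 2 DP peaks. This peak lay past the 3' end of the gene, 42.1 kb from its start, and a further DP peak of score 899 lay 0.0770 kb outside the window. Cd5, an inhibitory receptor whose level on thymocytes follows TCR signal strength, had 8 DP peaks with scores from 62.2 to 1283. The strongest lay 12.7 kb upstream, and a peak of score 328 lay 0.115 kb from the start. None of the 200 genes closest to Cd5 in length had more DP peaks. Cd28, the main costimulatory receptor, had 5 DP peaks scoring 233 to 776, and 1 of them lay 0.163 kb from the start of a coding transcript.

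Ctla4, which competes with Cd28 for B7 ligands, was the only surface receptor bound in both cell types. Its 5 DP peaks scored 75.8 and 94.6 upstream, 340 at the start of a coding transcript, 1129 in an intron and 193 past the 3' end. The single iNKT peak (chr1:60967286-60968474) had score 165 and rank 275 of 1516, and it lay on the intron peak, 1.86 kb from the start of a coding transcript. It was the highest iNKT score at any of the 36 genes. Both copies of CAGGTG in the sequence shown above lie inside the peaks of both lists.

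All 5 kinases were bound in DP cells, and 2 of them, Lck and Zap70, also in iNKT cells, against like-length shares of 45.6% and 7.70%. Lck had 4 DP peaks, with scores of 202 at the annotated gene start, 1166 at 1.68 kb upstream, 537 at 3.28 kb upstream, and 382 at 0.137 kb from the start of a coding transcript within the gene. The iNKT peak (chr4:129252143-129253174, score 76.7, rank 791) overlapped the strongest of these. None of the 4 DP peaks had CAGGTG in the central 200 bp. Because LckCre carries Lck promoter sequence, reads from the transgene can align to the Lck locus, and its part in these peaks was not tested. The strongest DP peak near Lck lay outside the window, 6.55 kb beyond its upstream end (score 1757), and an iNKT peak (score 95.6) overlapped it there, with Dcdc2b as the nearest gene start.

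Zap70, the kinase that binds phosphorylated CD3 and zeta chains, had 5 DP peaks: 474 at 0.215 kb from the start, 576 in an intron, and 3 of 74.6 to 87.8. Its iNKT peak (chr1:36829128-36829672, score 54.7, rank 1277) lay in an intron, 10.7 kb from the gene start, and overlapped no DP peak. Much stronger calls flanked the gene in both lists but outside the window. A DP peak of score 3100 lay 9.74 kb beyond the downstream end and another of 2343 lay 8.41 kb beyond the upstream end. The iNKT list had peaks on both of them, with scores of 318 (rank 110) and 134 (rank 373). The downstream pair had Zap70 as its nearest gene start, at 35.7 kb, and the upstream pair had Actr1b.

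The other kinases were bound in DP cells only. Tec, a tyrosine kinase that phosphorylates phospholipase C gamma, had the highest kinase score, 1810 (rank 746), but the peak lay 107 kb into the gene and closer to the start of Txk, at 8.68 kb. Fyn, the Src-family kinase that partners Lck and also acts in the SLAM receptor pathway of iNKT cells, had 11 DP peaks, with no score above 399. Of the 200 genes closest to Fyn in length, 4 had more peaks. Csk, which phosphorylates the inhibitory tyrosine of Lck, had 9 DP peaks across only 54.0 kb, with scores from 83.3 to 543, and no like-length gene had more.

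**Figure D2:**
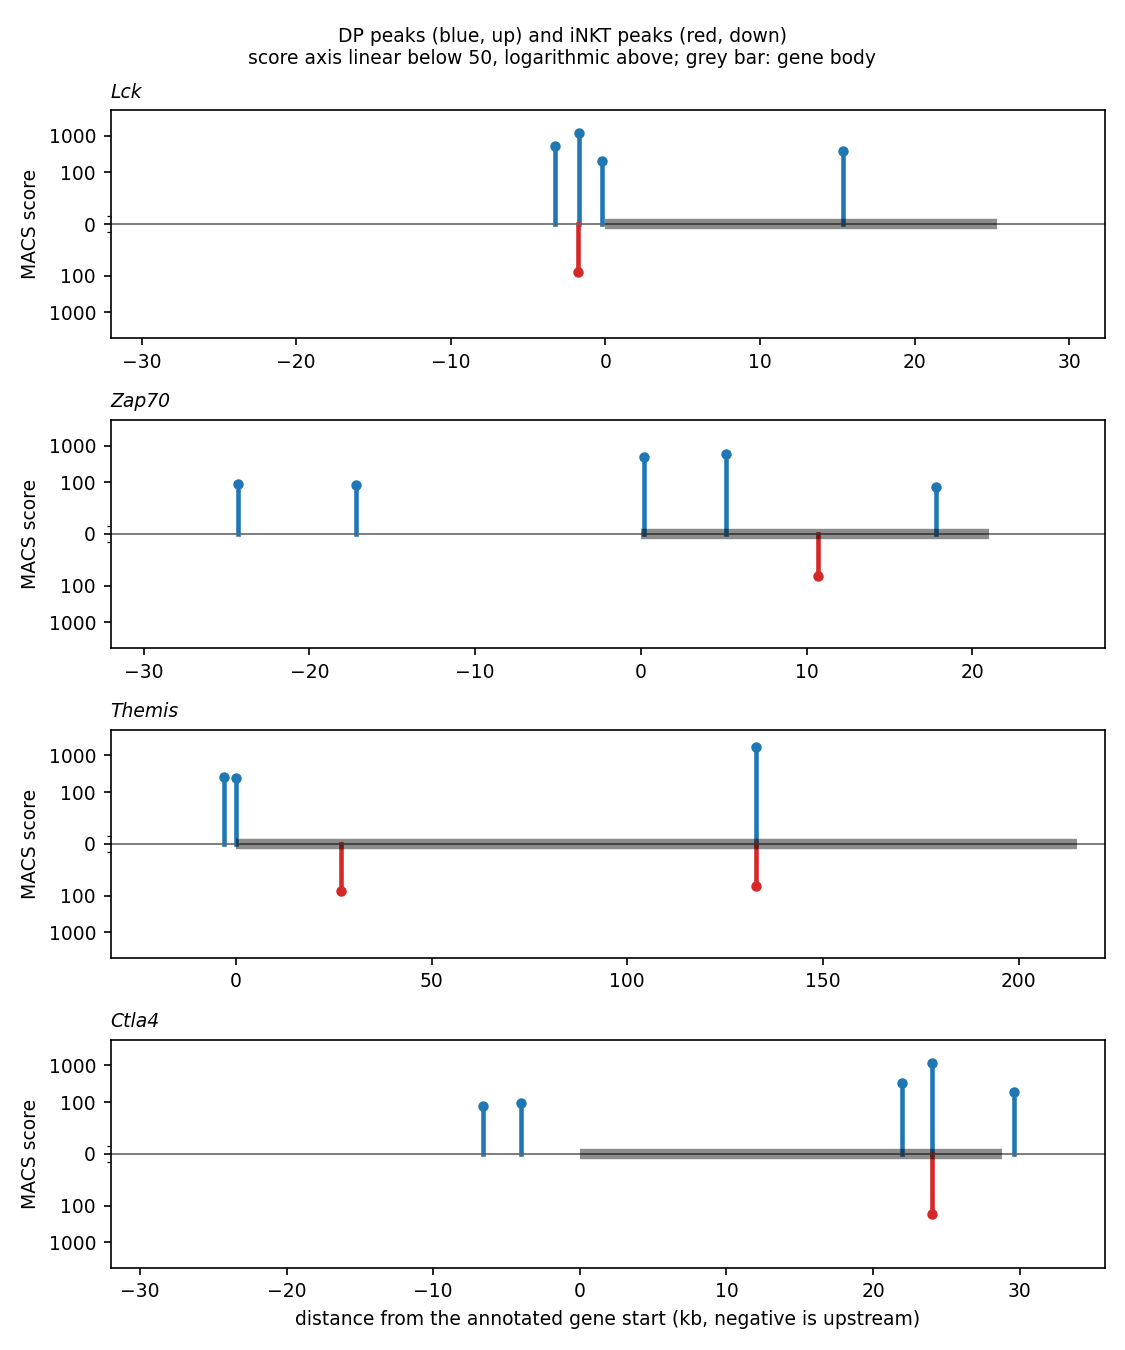
Position of each peak midpoint from the annotated gene start (kb, negative upstream) and its MACS score at Lck, Zap70, Themis and Ctla4, with DP peaks drawn upwards in blue, iNKT peaks downwards in red, and the gene body as a grey bar. At Lck, Themis and Ctla4 an iNKT peak sits at the place of the strongest DP peak in the window, and at Zap70 the iNKT peak stands apart from all 5 DP peaks.

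All 3 phosphatases were bound in DP cells (like-length 45.0%) and none in iNKT cells (8.50%). Ptprc encodes CD45, which removes the inhibitory phosphate from Lck, and it had 8 DP peaks with the 2 strongest at 2183 (rank 567), 16.8 kb upstream, and 1562, in an intron 20.9 kb from the start. At the Ptprc start itself the peak was weak, with a score of 74.8. Ptpn22, which dephosphorylates Lck and Zap70, had 4 DP peaks with a best score of 380. Ptpn6 encodes SHP-1, and its 2 DP peaks scored 225, at 0.928 kb from the start of a coding transcript, and 99.8, at 2.45 kb upstream and nearer the start of Grcc10.

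Of the 7 adaptors, 6 were bound in DP cells (like-length 45.7%) and 1 in iNKT cells (6.79%), and all 6 had a best DP score of at least 1000, as did 8.60% of the like-length places of the 36 genes. Lcp2 encodes SLP-76, the scaffold that couples Lat to phospholipase C gamma and Vav1. It had 8 DP peaks, of which the intron peak 31.4 kb from the start scored 3100 (rank 27). That value is shared by 258 DP peaks, so the order among them is unknown. Lat, the membrane platform itself, had a peak of 1545 at 0.410 kb from its start and a further peak of 139. Grap2 (GADS), which links SLP-76 to Lat, had 4 DP peaks, all upstream, with a best score of 1575 at 11.9 kb. Grb2, which brings Sos to Lat, had 6 DP peaks, and the strongest (1304) lay just past its 3' end. Nck1, which links SLP-76 to the cytoskeleton, had no peak, and 95 of the 200 genes of like length had at least 1.

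Sla encodes SLAP, an adaptor that works with Cbl to lower TCR levels on DP thymocytes, and it had 15 DP peaks, more than any other of the 36 genes and any of its 200 like-length genes. They covered the range from 55.3 to 2536. The 3 strongest were at the gene start (2536), 6.44 kb into the gene (2277) and in an exon 42.6 kb from the start (1819), and 3 peaks lay at starts of coding transcripts. The Tg gene overlaps this locus, so 14 of these peaks also fell in the window of Tg, but each of the 15 had Sla as its nearest gene start.

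Themis, a thymocyte protein that is needed for positive selection and regulates SHP-1, was the only adaptor with an iNKT peak. It had 3 DP peaks in a body of 215 kb, and 140 of its 200 like-length genes had fewer and 42 had more. Their scores were 260 at 3.06 kb upstream, 236 near the start and 1702 (rank 804) in an intron 133 kb from the start. An iNKT peak (chr10:28520350-28521241) of score 54.1 and rank 1307 overlapped the strongest. A further iNKT peak (chr10:28414621-28415486, score 75.2, rank 823) lay 26.9 kb from the start and overlapped no DP peak. The shared peak is the one with the CAGGTG array shown above, and the whole DP peak held 16 copies. The number of repeat copies in the genome of these mice was not analysed here, and its part in the score was not tested.

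Among the 7 second messenger and exchange factor genes, 6 were bound in DP cells (like-length 47.0%) and none in iNKT cells (8.64%), and the number of peaks ranged from 0 to 7. Prkcq, protein kinase C theta, had 7 DP peaks with a best score of 1162 in an intron 1.77 kb from the start. Dgka and Dgkz encode kinases that remove diacylglycerol and so limit Ras activation. Dgka had the highest score of the group, 2257 (rank 543), past its 3' end and closer to the start of Pmel (10.0 kb), and a peak of 1600 at 1.78 kb upstream of its own start. Dgkz had 5 DP peaks, 4 of them with CAGGTG in the central 200 bp, and a best score of 436.

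Rasgrp1, the main Ras exchange factor of thymocytes, had 1 DP peak of score 118, and Vav1, which activates Rac, had 1 of score 98.9, each within 1 kb of a coding transcript start. Both scores were below the median of DP peaks in gene windows, 139, while in number of peaks 100 of the 200 like-length genes of Rasgrp1 and 119 of those of Vav1 had fewer. Sos1, the exchange factor brought by Grb2, had no peak. Plcg1, phospholipase C gamma 1, had 4 DP peaks, the strongest of score 331.

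The 3 genes of the ubiquitin pathway were bound in DP cells (like-length 49.8%) and not in iNKT cells (11.7%). Cbl, a ligase that marks active receptor complexes for degradation, had 3 DP peaks with a best score of 612 upstream, closer to the start of Ccdc153. Ubash3a (STS-2), which binds Cbl and is related to phosphatases, had 7 DP peaks of 51.5 to 495. Cblb, which sets the need for Cd28 costimulation, had 3, and its strongest, of score 227, held 40 copies of CAGGTG across the whole peak.

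In the NF-kB arm, Malt1, a paracaspase, had 2 upstream DP peaks (285 and 55.4), while Bcl10, its partner, had none (like-length share 40.5%). In the calcineurin-NFAT arm all 5 genes were bound in DP cells (like-length 51.4%) and none in iNKT cells (14.9%). Nfatc3, an NFAT factor of DP thymocytes, had 10 DP peaks, with 3100 (rank 27) and 2128 (rank 591) in introns 53.1 and 45.4 kb from the start. Of these 10 peaks, only those upstream had Nfatc3 as the nearest gene start, and the others were nearer the start of Esrp2. Nfatc2 had 6 DP peaks with a best score of 729, and Nfatc1 had 5 with a best score of 400. The calcineurin subunit genes had fewer peaks, 2 for Ppp3ca (413 and 88.8) and 1 for Ppp3cb (120).

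**Figure D3:**
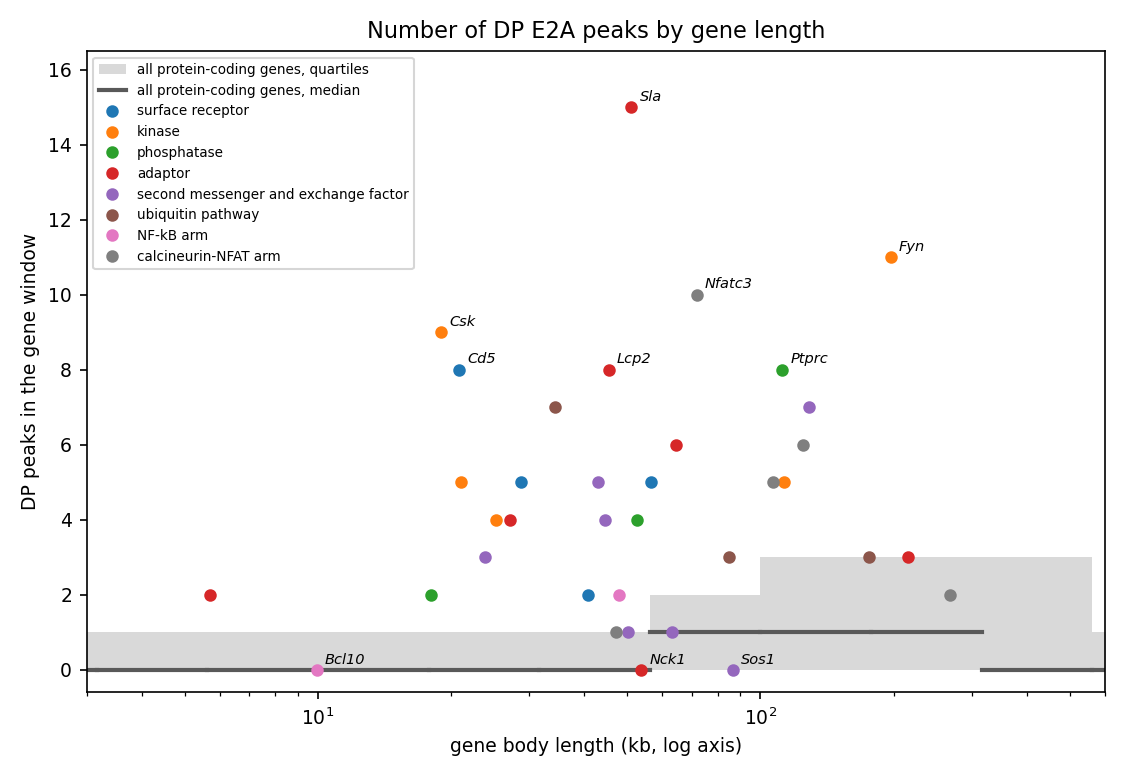
Number of DP peaks in each gene window against gene body length (kb, log axis) for the 36 TCR signaling genes, coloured by role, over the median and quartiles of all protein-coding genes in bins of length. Sla (15), Fyn (11), Nfatc3 (10) and Csk (9) stand highest, and Nck1, Sos1 and Bcl10 lie at 0.

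By sign of action, all 11 negative regulators, all 4 genes that act in both directions and 18 of the 21 positive regulators were bound in DP cells, against like-length shares of 44.5%, 48.6% and 47.4%. The median number of DP peaks was 5.00 for the negative regulators, 5.50 for those with both actions and 4.00 for the positive regulators. In iNKT cells, 1 negative regulator, 1 gene with both actions and 2 positive regulators were bound, and with like-length shares of 7.18%, 11.2% and 9.36% the counts for the negative and positive regulators lay near their background. These counts are small, and the difference between the classes was not tested.

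The median score of DP peaks at the TCR signaling genes was 221 (quartiles 89.2 and 431), against 139 (75.2 and 351) for the 13895 DP peaks in any gene window, and their median width was 1153 bp against 992 bp. Of the 166 peaks, 21 were among the highest-scoring 10% of the DP list (12.7%, interval 8.43% to 18.6%), and the share for all DP peaks in gene windows was 9.48%, inside this interval. Per gene the difference was larger. The best score had a median of 729 over the bound genes and 254 over the bound like-length places. A best score of at least 1000 was found at 15 of the 36 genes (41.7%) and at 8.60% of like-length places, and a best score of at least 2000 at 5 genes (13.9%) and 3.72%. A gene with more peaks has more chances of a high best score, and the measures are not independent.

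Of the 166 DP peaks, the 3 at Lck, Themis and Ctla4 overlapped an iNKT peak, 1.81% of them (interval 0.616% to 5.18%), and the share over all DP peaks in gene windows was 5.67%, just above this interval. The upper end of the interval passed 5.67% with gene bodies only (6.87%), with each peak given to its nearest start (6.15%), within 2 kb of the gene start (22.7%) and with windows of 100 kb upstream and 20 kb downstream (7.03%). The 5.67% was not recomputed for these settings, so the intervals are set beside a share from other windows. Fewer peaks also widen an interval, as with the 21 DP peaks within 2 kb of the gene start. Of the 55 highest-scoring peaks (scores 326 to 3100), 3 overlapped an iNKT peak, against 16.3% of all DP peaks in gene windows with the same scores. All 3 were among the 21 highest-scoring peaks, 14.3% of these (interval 4.98% to 34.6%), and the share for all DP peaks of that score range (at least 958) was 31.1%, inside the interval. So DP peaks at Lcp2, Nfatc3, Sla, Dgka, Ptprc and Cd6, with scores from 1910 to 3100, had no iNKT peak on them. Whether E2A is absent from these sites in iNKT cells or was below detection in the iNKT library cannot be told apart. In the other direction, 3 of the 5 iNKT peaks lay on a DP peak (60.0%), as did 72.0% of the 1091 in gene windows.

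For the 32 genes without an iNKT peak in the window, the nearest iNKT peak lay a median of 305 kb from the gene start, from 29.6 kb at Lat to 4360 kb at Ppp3cb. Of these genes, 4 had an iNKT peak within 100 kb. The one at Lat had score 130. The one near Rasgrp1 had score 244 (rank 149), lay 56.6 kb upstream with Rasgrp1 as the nearest start, and overlapped a DP peak of score 882, which is higher than the only DP peak in the Rasgrp1 window. Near Grap2 and Vav1 iNKT peaks of 191 and 137 lay 84.7 and 84.8 kb upstream on DP peaks of 2164 and 2052, but nearer to Enthd1 and Tnfsf14. With windows of 100 kb upstream and 20 kb downstream, 7 of the 36 genes had an iNKT peak, and 15.2% of like-length places did.

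A DP peak within 1 kb of the start of a coding transcript was found at 18 of the 36 genes (50%, interval 34.5% to 65.5%) and at 16.6% of like-length places. Counted over peaks, however, the TCR signaling genes had a usual layout. Promoters held 13.3% of their DP peaks (like-length 14.4%), introns 48.2% (49.6%), upstream sequence 26.5% (27.0%), exons 2.41% (3.71%) and downstream sequence 9.64% (5.27%). Each like-length share lay within the interval of its class except downstream, where the interval was 6.02% to 15.1%.

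**Figure D4:**
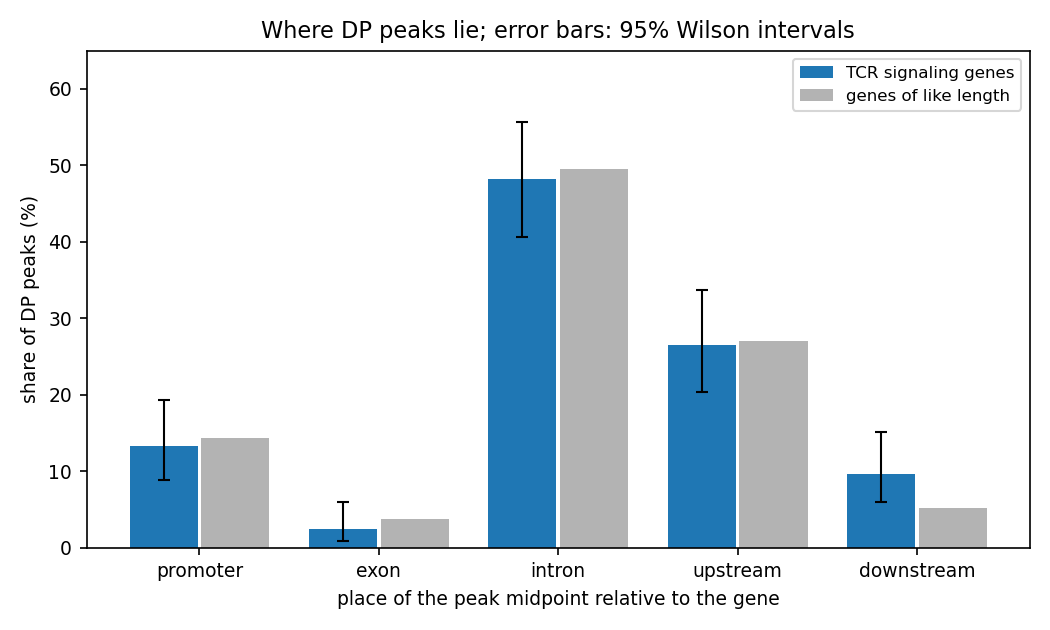
Share of DP peaks (%) by place of the midpoint for the 166 peaks at TCR signaling genes (blue, with 95% Wilson intervals) and for the peaks of their like-length genes (grey). Introns are the largest class in both, at 48.2% and 49.6%, and downstream is the class where the grey bar falls below the interval.

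Some of the assignments are shared with neighbours. Of the 166 DP peaks, 76 also lay in the window of another protein-coding gene and 122 had the TCR signaling gene as the nearest gene start, taking for each gene only its outermost annotated start. For 23 of the 33 bound genes the strongest DP peak was nearest their own start. For the other 10, Tec, Csk, Fyn, Grb2, Dgka, Dgkz, Cd5, Ptpn6, Cbl and Nfatc3, the nearest such start was that of another gene, although the peaks of Tec, Csk, Fyn, Dgkz, Ptpn6 and Nfatc3 lay inside the gene itself. For Fyn and Ptpn6, the start of a coding transcript within the gene was nearer still, at 3.33 and 0.928 kb.

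The E2A core was less frequent in the central 200 bp of these peaks than in that of DP peaks at large. CAGGTG on either strand was found in the central 200 bp of 55 of the 166 DP peaks (33.1%, interval 26.4% to 40.6%), against 43.5% of all DP peaks in gene windows, above this interval. In 200-base flanks 2 kb to each side it was found in 19.9% for these peaks and 15.9% for all. The E-box CAGCTG, a palindrome, was in 18.1% (interval 13.0% to 24.6%) against 28.7%, also above. The Runx core ACCACA and the Tcf/Lef core TCAAAG, each also searched for on the minus strand, were in 21.1% and 17.5%, against 23.3% and 16.7%, and both shares for all peaks lay within the intervals for the TCR signaling genes. Matches of different words can share bases. Over whole peaks, CAGGTG was in 75.9%, and the share for all DP peaks is not given. These peaks were wider (median 1153 bp against 992 bp), so the central 200 bp cover less of them. The central share was 34.3% (interval 25.8% to 43.9%) in gene bodies and 23.8% (10.6% to 45.1%) within 2 kb of the gene start. Both intervals hold 43.5%, while that by nearest start (25.8% to 41.3%) does not. The 43.5% was not recomputed for these settings. The central GC content was 49.6%, and 51.8% for all DP peaks in gene windows.

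The share of CAGGTG was 32.7% in the 55 highest-scoring peaks, 30.9% in the next 55 and 35.7% in the lowest 56, against 46.2%, 44.9% and 41.5% of all DP peaks with the same scores. In the lowest class the value for all peaks lay inside the interval (24.5% to 48.8%), and in the others it lay just above the upper end, at 45.9% and 44.0%. With the DP list limited to its 1516 highest-scoring peaks, 10 of the 20 peaks at TCR signaling genes held the core (50%, interval 29.9% to 70.1%), against 46.3% of the 1143 peaks of that list in gene windows, so this share lay near its background. Among the other 146 peaks, with scores of at most 994, it was 30.8% (interval 23.9% to 38.7%), against 43.3%. The difference between the 20 and the 146 was not tested. A peak with the core in its central 200 bp was present at 23 of the 33 bound genes, a count for which no share over other bound genes is given.

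**Figure D5:**
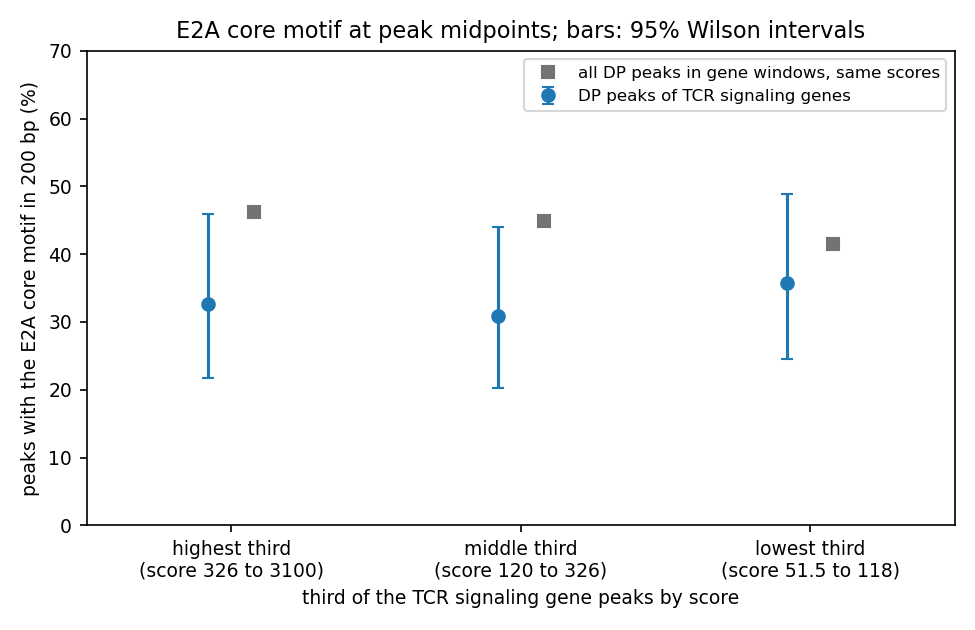
Share of DP peaks (%) with the E2A core in the central 200 bp, in 3 classes of score, for the 166 peaks at TCR signaling genes (blue circles, 95% Wilson intervals) and for all DP peaks in gene windows within the same scores (grey squares). The circles lie at 32.7%, 30.9% and 35.7%, each below its square at 46.2%, 44.9% and 41.5%.

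A few peaks at these genes held runs of the core. At least 5 copies of CAGGTG in 200 bp were present in 4 of the 166 DP peaks (2.41%, interval 0.941% to 6.03%) and in 0.813% of DP peaks in gene windows, a threshold chosen after the peaks were seen. They lay at Themis, Cd5, Cblb and Ppp3ca, and the most copies within 200 bp, 14, were in an intron of Ppp3ca, which encodes the catalytic subunit of calcineurin, shown (mm9, plus strand) for comparison with Themis.
Ppp3ca, chr3:136362774-136362973: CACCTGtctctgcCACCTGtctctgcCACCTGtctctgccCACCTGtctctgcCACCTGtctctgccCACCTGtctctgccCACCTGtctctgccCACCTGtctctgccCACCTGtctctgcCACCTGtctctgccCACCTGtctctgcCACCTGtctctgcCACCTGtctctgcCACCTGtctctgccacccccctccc
By copies in 200 bp, Ppp3ca with 14 had a score of 88.8, Themis with 10 had 1702, Cblb with 5 had 227 and Cd5 with 5 had 93.9. Over whole peaks Cblb held 40 copies, Themis 16 and Ppp3ca 15. Among these 4 peaks the score followed neither count, and only the Themis run had an iNKT peak on it. Over all DP peaks in gene windows, 33 of the 113 with such a run overlapped an iNKT peak (29.2%).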

How the data were processed

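Each deposited list holds a position and a score per E2A peak, 1 list for DP and 1 for iNKT cells. Per the labels and methods, the authors used Bowtie 1.1.2 for alignment to mm9, with only uniquely best alignments kept, and called peaks with MACS 1.4.2; the deposited score is 10 times −log10 of the MACS p-value, and the lowest score, 50, is a p of 1e-05. Replicates were not made. Positions were used as deposited, and scores only within a list, for ranking, description or a minimum. Reads, inputs and RNA-Seq values were not analysed here.

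Peak midpoints were assigned to GENCODE M1 gene windows, and peaks shared between lists overlapped by at least 1 bp. Like-length genes were the 200 nearest in body length to each gene, so 1 gene can stand at several of the 7200 places. Motifs were counted on the NCBIM37 sequence (pysam 0.24.0, Python 3.11.15), with 95% Wilson intervals (scipy 1.17.1). The assignment, overlap and motif code was tested on simulated data, with 5 of 5 checks passed.

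The 36 genes, the lists and the comparisons were chosen with earlier results of these data known. The 200-base sequences, the highest 10%, the score classes and the runs of CAGGTG were chosen after their values were seen. Described in full were genes with an iNKT peak, the highest DP score of each role group, and the genes with the most DP peaks, planned as the top 5. For the last of these places Cd5, Lcp2 and Ptprc tied at 8 peaks. The other genes were given a short account. Sequence of chromosome 18 is not reported here. Of the 78 other pathway genes, named if they held an iNKT peak or 1 of the 5 highest DP scores, 2 were matched by an older symbol, and some are not reported here by name. Alternatives were minimum scores, other windows, nearest start, equal list length, other backgrounds and other motif lengths.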

Additional observations from a re-analysis of the deposited data

How the results depend on the processing

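Without replicates or depth, no call has an error and none was tested, and input control was as the authors called it. No paired analysis was possible because each cell type had 1 E2A library and no result comes from a test. Of 81 alternative values, 36 stayed within 1.5 times the reported count or, for a share or median, within its 95% interval.

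With a minimum score of 100, iNKT-bound genes, genes bound in both lists and iNKT peaks each fell to 1, the share of iNKT peaks on DP peaks was 100% and the median DP score 311. Like-length shares were 35.3% (DP) and 3.64% (iNKT). At 200, these counts were 0, 0 and 0, DP peaks were 88 with median score 410 and 0% overlap, and the shares were 25.9% and 1.22%. These changes follow from removing peaks, and the iNKT overlap then has no value.

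Within 2 kb of the gene start, 17 genes were bound in DP cells, 1 in iNKT cells and 1 in both, with 21 DP peaks (median score 277, 23.8% with CAGGTG), 1 iNKT peak, 100% of it on a DP peak, and like-length shares of 16.2% and 0.528%. In gene bodies only, DP peaks were 102 and the shares 32.3% and 5.90%. In the wide window (100 kb upstream, 20 kb downstream), 7 genes had iNKT peaks, 7 had both, iNKT peaks were 11, and the shares were 63.2% and 15.2%. With each peak given to its nearest start only, the shares were 37.7% and 7.18%, and over all protein-coding genes 39.2% and 5.73%.

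With the DP list limited to the length of the iNKT list, 15 genes were bound by 20 DP peaks (median score 1756), 15.0% overlapped an iNKT peak, 50% had CAGGTG and the like-length share was 8.04%. CAGGTG was in 75.9% of whole peaks and in 16.9% at 100 bp, by the length searched. The interval of the share of DP peaks on an iNKT peak held 5.67% in gene bodies and by nearest start. It also did so within 2 kb of the start and in the wide window. The 5.67% is for all DP peaks in the gene windows first described and was not recomputed for these settings. The cause of the other changes was not tested.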

Other observations

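Among 78 other genes of the TCR pathway, listed by function and separate from the 36, 56 had a DP peak (71.8%, like-length 45.0%) and 14 had an iNKT peak (17.9%, like-length 7.66%). A DP peak was found at 16 of 17 proximal kinases, adaptors and cytoskeletal genes (like-length 46.6%), 10 of 11 calcium genes (48.1%), 6 of 8 costimulatory and coinhibitory genes (39.6%) and 12 of 17 inhibitory genes (45.3%). The 7 of 14 Ras-MAPK and PI3K genes and 5 of 11 NF-kB genes with a DP peak lay near their like-length shares of 43.9% and 44.0%. In iNKT cells, 5 of the 14 Ras-MAPK and PI3K genes had a peak (like-length 6.64%), as did 3 of 17 proximal (8.82%), 2 of 17 inhibitory (7.53%), 2 of 11 NF-kB (7.00%), 1 of 11 calcium (10.0%) and 1 of 8 costimulatory and coinhibitory genes (4.88%). Differences between the arms were not tested.

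Peaks of both lists coincided at Sit1, an inhibitory transmembrane adaptor (2557 and 126), Vav2, an exchange factor (1564 and 280), Sla2, the relative of Sla (2709 and 134), Ubash3b or STS-1 (2249 and 220), Rasgrp2 (2502 and 61.2), Itpr1, a calcium channel of the endoplasmic reticulum (3100 and 61.4), Nfkb1 (932 and 112) and Lag3, an inhibitory receptor (3100 and 159), where each pair gives the best DP score and the best iNKT score. The best DP peaks of Lag3 and Nfkb1 lay past the 3' end, 11.0 and 110 kb from the start. Which gene start is nearest to a peak was not listed for these 78 genes. At Braf and Ikbkg an iNKT peak but no DP peak was called, and at Sos2 and Pik3r1 the iNKT peak overlapped no DP peak. Traf6, with a best DP score of 3100, and Itpr2, with 2598 and 18 DP peaks, had no iNKT peak. Both of these best DP peaks lay upstream of the gene, that of Traf6 close to the outer end of its window. Whether they lie nearer the start of another gene was not examined.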
